A study of Mus musculus with 9 samples.

Results

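Ncf1 encodes p47phox, the cytosolic organiser subunit of the phagocyte NADPH oxidase, and its mutation marks one of the mouse lines compared here. Described here are 10 listed genes around it on mouse chromosome 5 (Gtf2ird2, Gtf2i, Gtf2ird1, Clip2, Rfc2, Lat2, Eif4h, Limk1, Stx1a and Baz1b). They were found by symbol among the 42454 genes of the deposited table, of which 2070 lie on that chromosome. All 10 were in the table, and all 10 passed the filter for low values (3 or more libraries with 10 or more normalized counts), which left 14404 genes for testing. The question was whether genes beside the targeted locus differ in its knockout.

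Macrophages with low Ly6C and with MHC-II on their surface had been sorted from the colon lamina propria of mice aged 6 weeks, and their RNA was sequenced. The 3 genotypes were WT, p47phox-/- (Ncf1) and gp91phox-/- (Cybb, the membrane-bound catalytic subunit of the same oxidase), with 3 libraries each. The labels give no allele, strain background, littermate status, sex or treatment, nor do they say if the libraries stem from different animals, so the p-values measure the spread between these libraries, which may be technical. Recovered reads ran from 31141107 to 52797368 per library. Genes with at least 1 read numbered 14323 and 14268 in p47phox-/- replicates 2 and 3, against 15825 to 18760 in the other 7 libraries, and whether this gap has a part in the results was not tested.

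Around Ncf1 lies the mouse counterpart of the human chromosomal region whose deletion causes Williams syndrome, a developmental disorder of heart, vessels, growth and cognition. Its genes belong to unrelated families and include transcription factors, cytoskeletal regulators, a clamp loader subunit and a chromatin remodeller. In a line made by targeting in embryonic stem cells of one strain, DNA linked to the targeted gene can remain of that strain after crossing, so genes beside a targeted locus can differ for reasons apart from the loss of its product. Whether such flanking DNA is present in these mice is not stated in the labels, and no sequence variant was read.

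By the RefSeq gene models on GRCm38 (mm10 coordinates) Ncf1 runs from 134220053 to 134229628 on the minus strand of chromosome 5. Gtf2ird2 lies 1.9 kb to its proximal side at chr5:134182557-134218146. The other 9 genes lie on the distal side, where Gtf2i begins 8.2 kb away, Gtf2ird1 128.0 kb and Clip2 259.8 kb away. Rfc2 begins 353.1 kb away, Lat2 370.5 kb, Eif4h 390.2 kb, Limk1 426.4 kb, Stx1a 793.9 kb and Baz1b 957.7 kb away. All 10 are annotated as protein coding, and Gtf2ird2, Rfc2, Stx1a and Baz1b are transcribed from the plus strand.

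The sequences upstream of Ncf1 and of Baz1b are shown because these are the targeted gene and the one neighbour that passed the test in a comparison. Both are written 5′ to 3′ on the strand of the gene, from RefSeq promoter windows on GRCm38.p6, and end before the first exon in RefSeq and GENCODE. Capitals mark matches, on either strand, to the CCAAT box (CCAAT) or to the GC box (GGGCGG). The Ncf1 stretch is chr5:134229629-134229875 on the minus strand, and the Baz1b stretch is chr5:135187073-135187263 on the plus strand.
Ncf1: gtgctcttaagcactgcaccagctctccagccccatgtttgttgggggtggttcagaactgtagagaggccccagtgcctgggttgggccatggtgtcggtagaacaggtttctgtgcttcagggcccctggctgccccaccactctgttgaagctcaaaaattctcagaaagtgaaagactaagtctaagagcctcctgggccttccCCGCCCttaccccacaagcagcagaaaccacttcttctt
Baz1b: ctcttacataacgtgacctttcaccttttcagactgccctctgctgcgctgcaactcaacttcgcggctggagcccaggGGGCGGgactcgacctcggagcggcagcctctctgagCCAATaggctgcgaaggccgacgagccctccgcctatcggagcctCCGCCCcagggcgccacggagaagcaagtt

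Windows of 300 bases around the start site were held for Ncf1 and 8 of the 10 neighbours (10 windows in all, with 2 for Limk1). The GC box was found in 8 of the 10 windows, against 35.7% of 32851 RefSeq windows of the same length, and the CCAAT box in 4, against 37.4%. TATAAA was found in 0 of the 10, against 13.6%, and GAGGAA, the core that myeloid ETS factors such as PU.1 favour, in 4, against 28.3%. The Ncf1 window was 54.0% G or C and the Baz1b window 64.7%, beside a median of 52.7% over all windows. These matches describe letters only. The 32851 windows were not limited to protein-coding genes or to genes that passed the filter, as the 10 neighbours were.

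Ncf1 itself was read first, as a check of the labels. Its normalized counts were 10066, 8989.8 and 10815 in the WT libraries, 2718, 3733 and 3133 in p47phox-/-, and 13617.5, 12136 and 13365 in gp91phox-/-. Each p47phox-/- library was below each of the other 6, and RNA assigned to Ncf1 was still counted in all of them. The log2 fold change in p47phox-/- was -1.65 against WT (SE 0.14, adjusted p = 0.000348) and -2.04 against gp91phox-/- (adjusted p = 3.42e-06). In gp91phox-/- the 3 libraries were all above WT, with a log2 difference of 0.39 that did not pass the test (adjusted p = 0.118). Cybb could not be read, because all 1362 genes of the X chromosome were listed at 0 in every library.

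**Figure D1:**
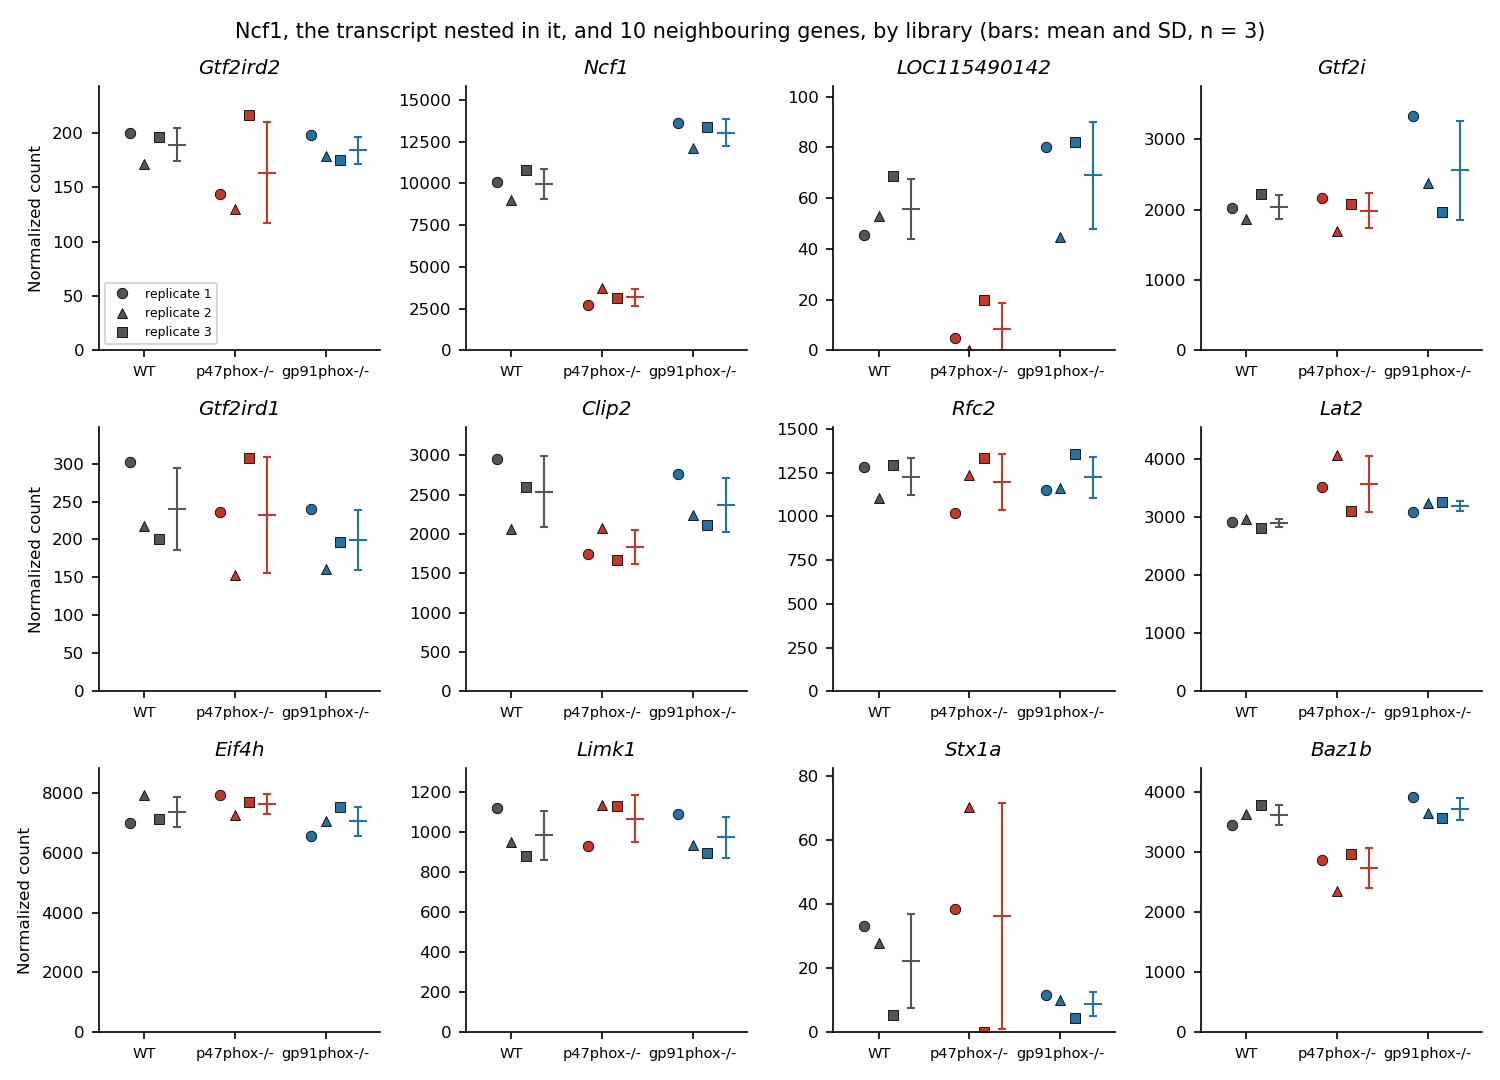
Normalized counts (linear vertical axes from 0, a scale of its own in each panel) of Ncf1, of LOC115490142, which is nested in it, and of the 10 neighbouring genes in chromosomal order, by genotype. Circles, triangles and squares are replicates 1, 2 and 3, and bars are the mean and SD of 3 libraries; the 3 p47phox-/- libraries lie below the other 6 for Ncf1, LOC115490142 and Baz1b.

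Of the 10 neighbours, 0 were called in p47phox-/- against WT at an adjusted p under 0.05 in limma, where 1.12% of all genes tested were called. An unadjusted p under 0.05 was reached by 3 of them (Clip2, Baz1b and Lat2), beside 15.02% of all genes. On recovered reads edgeR called 0 of the 10, beside 133 of the 14404 genes. DESeq2 called 1 of the 10, which was Baz1b, beside 678 of the 14404. The median log2 fold change of the 10 was -0.06 beside -0.02 over all genes tested, and the median of its absolute size was 0.18 beside 0.28.

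Against gp91phox-/-, whose Ncf1 locus was not targeted, 1 of the 10 was called, Baz1b, which was lower. Of all genes tested, 9.93% were called in that comparison and 3.97% were called lower. With the mean of WT and gp91phox-/- as the reference, Baz1b was again the 1 gene called, beside 5.28% of all genes and 2.24% called lower. These comparisons share the p47phox-/- libraries. In gp91phox-/- against WT, in which neither line was targeted at Ncf1, 0 of the 10 were called in limma, beside 7.05% of all genes. An unadjusted p under 0.05 was reached by 0 of them, beside 21.71% of all genes. Of the 10, edgeR and DESeq2 called 0, beside 973 and 1771 of the 14404 genes.

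Groups whose libraries did not overlap numbered 2 among the 10 in p47phox-/- against WT, Baz1b lower and Lat2 higher, beside 17.7% of all genes tested. Against gp91phox-/- there were 2, Baz1b and Clip2, both lower, beside 30.9%, and in gp91phox-/- against WT there was 1, Lat2, beside 33.3%. All 3 p47phox-/- libraries lay below the other 6 for 1 of the 10, Baz1b, beside 3.8% of all genes, and above them for 0, beside 4.28%.

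**Figure D2:**
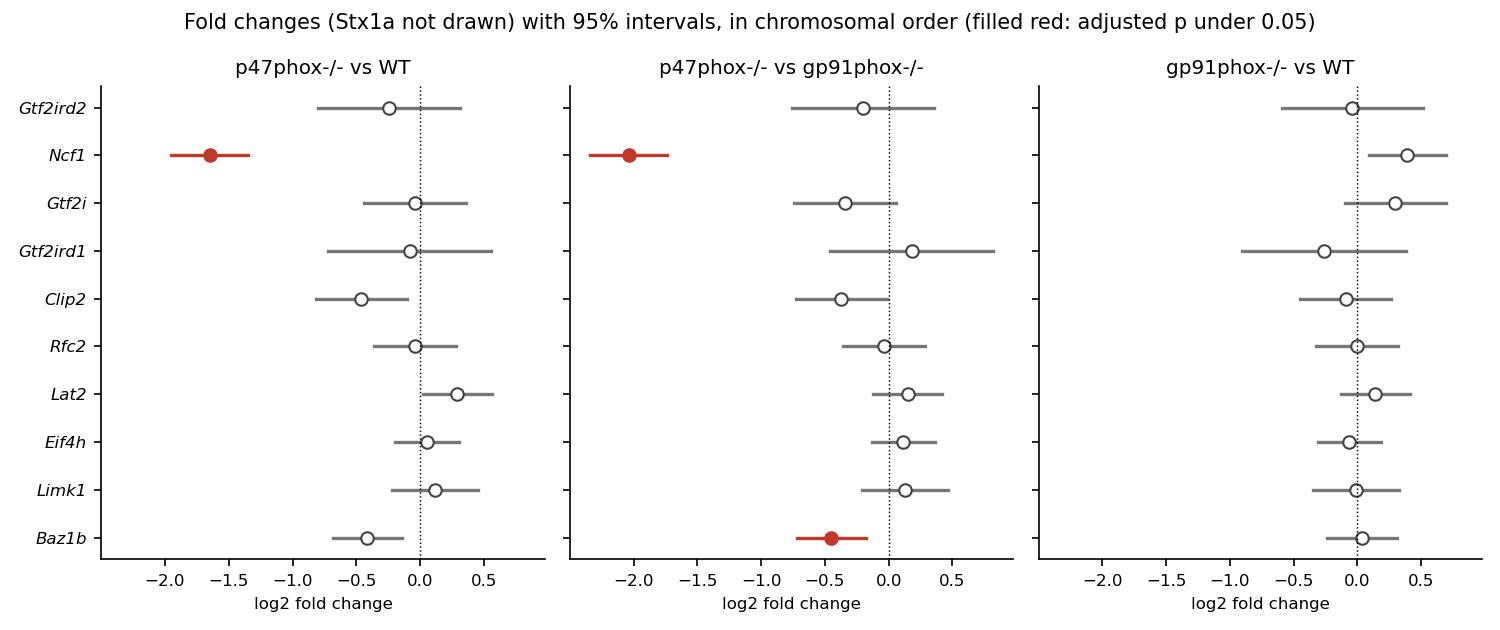
Log2 fold changes (points) with 95% intervals (lines) of Ncf1 and 9 of its neighbours in chromosomal order, for the 3 pairwise comparisons. Filled red points have an adjusted p under 0.05, which among the neighbours is Baz1b against gp91phox-/- (-0.45). Stx1a is not drawn because its interval, -3.40 to 2.62 against WT, would compress the axis.

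Baz1b encodes the Williams syndrome transcription factor, which pairs with the ATPase Smarca5 in a chromatin remodelling complex at replication sites and phosphorylates the histone variant H2A.X. It is the most distant of the 10 from Ncf1. Its normalized counts were 3446, 3637 and 3777 in WT, 2876, 2350.1 and 2972 in p47phox-/-, and 3919.8, 3649.7 and 3568 in gp91phox-/-. The highest p47phox-/- library was thus below the lowest of the other 6. Group means were 3620 ± 167 in WT, 2733 ± 335 in p47phox-/- and 3713 ± 184 in gp91phox-/- (SD, n = 3).

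The log2 fold change of Baz1b was -0.41 against WT (95% interval -0.68 to -0.14, adjusted p = 0.140), which did not pass the test over all genes. Against gp91phox-/- it was -0.45 (interval -0.72 to -0.18, adjusted p = 0.0408), or 26.7% lower, and against both other genotypes -0.43 (adjusted p = 0.0404). Between gp91phox-/- and WT it was 0.04 (interval -0.24 to 0.31, adjusted p = 0.915). The fold change stayed negative in every alternative run for the comparisons with p47phox-/-, while the call against gp91phox-/- held in 9 of 24 alternatives, with adjusted p from 0.00523 to 0.239. Leaving out any 1 library other than p47phox-/- replicate 1 ended that call, with adjusted p up to 0.123, and leaving out p47phox-/- replicates 2 and 3 together gave 0.239. The same held against both other genotypes, where the call remained in 9 of 23 alternatives and, of the single libraries left out, only without p47phox-/- replicate 1. Against WT the single alternative that called Baz1b was DESeq2 (adjusted p = 0.0408).

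The libraries of gp91phox-/- also differed from the others in markers of other cells. The 12 B cell markers summed to 3325 to 3941 normalized counts there, beside 16241 to 27406 in WT and 14971 to 23567 in p47phox-/-, with none of the 12 at 0 in a whole group. In p47phox-/- against gp91phox-/- all 12 were called higher in limma, where 9.93% of all genes were called. Of 18 genes of macrophage identity 3 were called lower in p47phox-/- than in gp91phox-/- (Cx3cr1, Itgam and Fcgr1). Cd68 was the 1 called higher, beside the same 9.93% of all genes. For Itgam and Cd68 the p47phox-/- group stood apart. Itgam was at 21599 ± 5778 there, 36697 ± 6717 in WT and 36645 ± 5494 in gp91phox-/- (SD, n = 3). Cd68 was at 23965 ± 1682, 18150 ± 1962 and 17395 ± 1597 in the same order. Cd68, Itgam and Cx3cr1 were also called in p47phox-/- against both other genotypes, beside 5.28% of all genes. Against WT 0 of the 18 were called in limma, beside 1.12% of all genes. In p47phox-/- against WT 0 of the 12 B cell markers passed in limma, edgeR or DESeq2. Of these markers 0 reached an unadjusted p under 0.05, beside 15.02% of all genes. With the libraries rescaled without immunoglobulin, B and plasma cell genes the call for Baz1b against gp91phox-/- remained, and the part of these cells in its level was not tested. In these bulk samples fewer cells of a type and less RNA per cell cannot be told apart.

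**Figure D3:**
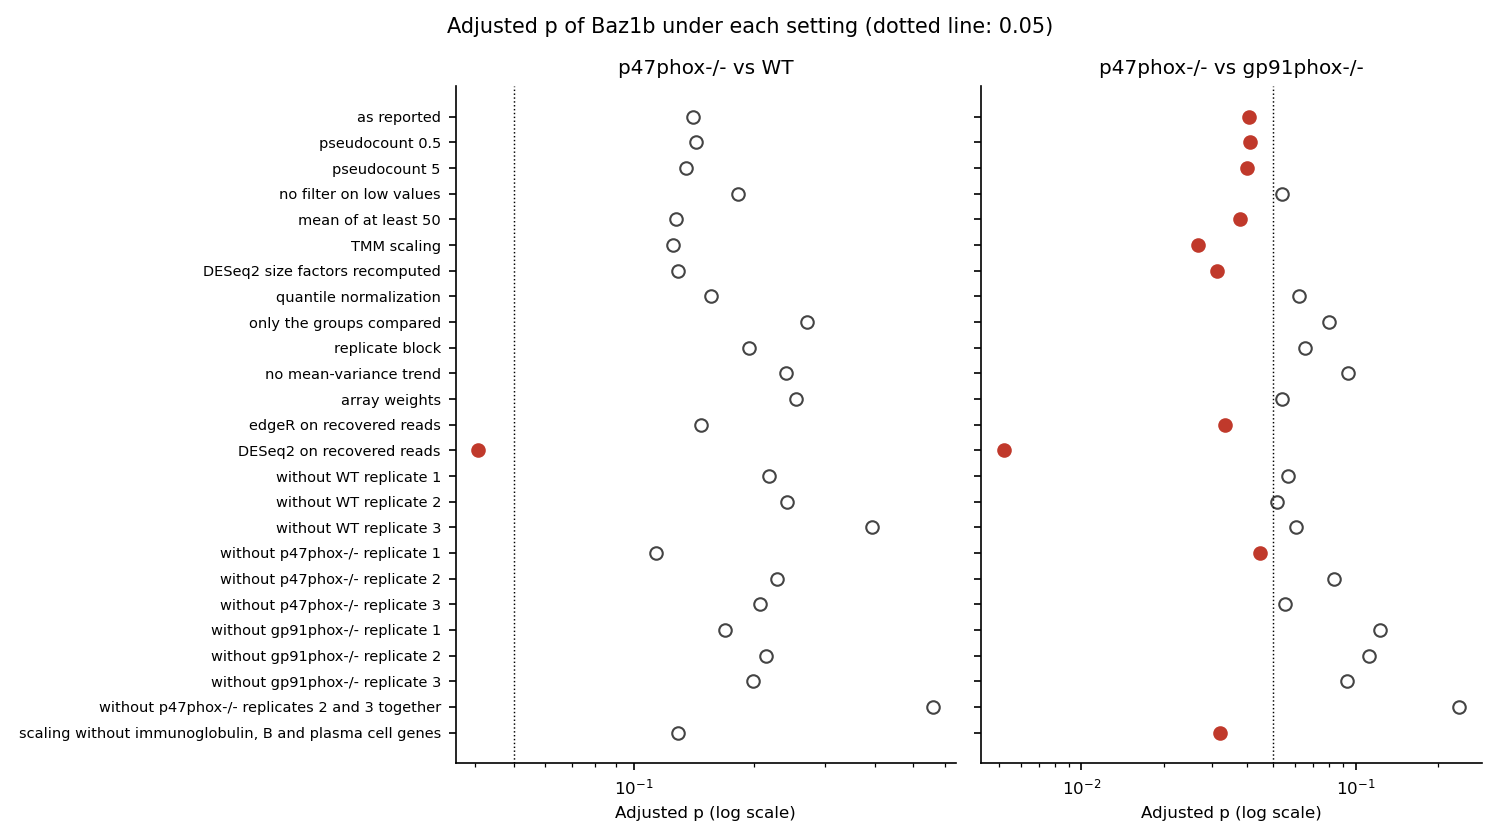
Adjusted p of Baz1b (log horizontal axis) in p47phox-/- against WT and against gp91phox-/- under each setting of the analysis (vertical axis). Filled red points are under 0.05, the dotted line; against gp91phox-/- the reported value and 9 of the 24 alternatives lie to its left, and against WT 1 of 24 does.

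The 3 genes whose centred log2 profiles were nearest to that of Baz1b over the 9 libraries, among 11198 genes with a mean of at least 50, were Tnks2 on chromosome 19, Ptprc on chromosome 1 and Rmnd5a on chromosome 6. The root mean square difference was 0.077, 0.077 and 0.079 on the log2 scale. None of these lies on chromosome 5, which holds 2070 of the 36134 genes placed by symbol, so most genes lie elsewhere too. The nearest of the other neighbours of Ncf1 was Gtf2ird2, at rank 528 of the 11198 genes (0.179). Ptprc, the leukocyte common antigen CD45, was at 21714 ± 2494 in p47phox-/- beside 28776 ± 3293 in WT and 30883 ± 1615 in gp91phox-/- (SD, n = 3). Its differences on the log2 scale were -0.51 from gp91phox-/- and -0.41 from WT; because these genes were chosen for their likeness to Baz1b, such values follow from the choice and carry no test here.

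Clip2 encodes a linker protein that binds the growing ends of microtubules. Its normalized counts were 2951, 2060.4 and 2598 in WT, 1744, 2075 and 1671 in p47phox-/-, and 2757, 2236 and 2118 in gp91phox-/-. The p47phox-/- libraries lay below all 3 of gp91phox-/-, and 1 of them was within the range of WT. On the log2 scale it differed by -0.46 from WT (95% interval -0.82 to -0.11, adjusted p = 0.207), -0.37 from gp91phox-/- (adjusted p = 0.176) and -0.42 from both (adjusted p = 0.115). None of these passed the test in limma, and of the alternatives DESeq2 alone called Clip2, against both other genotypes (log2 fold change -0.45, adjusted p = 0.0383).

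Limk1 is the other cytoskeletal gene of the set, a kinase that phosphorylates and so inactivates the actin-severing protein cofilin. Its counts were 1118, 950.9 and 876.9 in WT, 930.8, 1135 and 1129.9 in p47phox-/-, and 1088, 934.0 and 894.5 in gp91phox-/-, so the genotypes overlapped. Its difference from WT on the log2 scale was 0.12 (95% interval -0.22 to 0.46, adjusted p = 0.755).

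The 3 of the 10 genes nearest to Ncf1 encode related proteins of the TFII-I family, DNA-binding transcription factors with repeated helix-loop-helix-like domains. Gtf2ird2 ends before Ncf1 in the RefSeq models used for the distances above, but its longer GENCODE model reaches into Ncf1 and shares 408 exon bases with it on the opposite strand. It had 199.7, 171.8 and 196.6 normalized counts in WT. It had 144.4, 130.1 and 216.3 in p47phox-/- and 198.4, 179.2 and 175.3 in gp91phox-/-. In p47phox-/-, replicates 1 and 2 were the lowest of the 9 and replicate 3 was the highest.

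Gtf2i, the founding member, which also has a cytosolic role in calcium entry, had 2023, 1864 and 2214 in WT, 2163, 1700.4 and 2082 in p47phox-/-, and 3330.2, 2372 and 1967 in gp91phox-/-. The high value of gp91phox-/- replicate 1 stood apart from the other 8. Gtf2ird1 had 301.6, 217.3 and 201.2 in WT, 235.9, 153.9 and 306.8 in p47phox-/-, and 240.2, 161.7 and 196.8 in gp91phox-/-, and all genotypes overlapped. In p47phox-/- against WT the log2 fold changes were -0.24 for Gtf2ird2 (95% interval -0.80 to 0.31), -0.04 for Gtf2i (-0.44 to 0.36) and -0.08 for Gtf2ird1 (-0.72 to 0.56), with adjusted p from 0.692 to 0.938.

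Lat2, also called NTAL or LAB, is a membrane adaptor that is phosphorylated below immune receptors in B cells, mast cells and myeloid cells. Its normalized counts were 2919, 2959 and 2811 in WT, 3520.2, 4071 and 3105 in p47phox-/-, and 3091, 3232 and 3253 in gp91phox-/-. Both knockouts lay above WT in every library, and they overlapped each other. The log2 fold change was 0.29 in p47phox-/- (95% interval 0.02 to 0.56, adjusted p = 0.298) and 0.14 in gp91phox-/- (interval -0.13 to 0.41, adjusted p = 0.576), and no alternative called either. The B cell marker sums given above were high in WT and p47phox-/- and low in gp91phox-/-, and the part of B cells in the level of Lat2 was not tested.

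Rfc2, a subunit of the clamp loader that places PCNA on replicating DNA, had 1281, 1106 and 1294 in WT, 1022, 1236 and 1335 in p47phox-/-, and 1151, 1162 and 1357 in gp91phox-/-. The genotypes overlapped fully, and the log2 fold change against WT was -0.04 (95% interval -0.36 to 0.28, adjusted p = 0.925). The RefSeq models of Rfc2 and Lat2 do not overlap, but in the longer GENCODE models their exons share 952 bases on opposite strands, which is 15.1% of the Rfc2 exon bases and 36.3% of those of Lat2. The labels state neither the annotation nor the strand counted, so it is not known whether reads in that stretch were assigned to one gene or the other.

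Eif4h, which stimulates the helicase eIF4A in translation initiation, had the highest counts of the 10. They were 6992, 7919.9 and 7133 in WT, 7917, 7267 and 7676 in p47phox-/-, and 6538, 7068 and 7512 in gp91phox-/-. Against WT the log2 fold change was 0.05 (95% interval -0.20 to 0.30, adjusted p = 0.862).

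Stx1a, a syntaxin of the exocytic machinery best known from neurons, was barely counted. It had 33.1, 27.9 and 5.49 normalized counts in WT, 38.6, 70.3 and 0 in p47phox-/-, and 11.8, 10.3 and 4.47 in gp91phox-/-. The value of 0 came from p47phox-/- replicate 3, and the spread within a genotype exceeded the difference between genotypes. The log2 fold change against WT was -0.39 with an interval from -3.40 to 2.62, so a difference was not detectable at this depth. The 9 markers of enteric neurons and glia were low as well, at 129.8 to 231.2 in sum in WT, 115.3 to 265.5 in p47phox-/- and 85.9 to 1206 in gp91phox-/-.

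Per kb of exon (GENCODE lengths, which may not be the lengths counted), the mean level over the 9 libraries was 1322 normalized counts for Eif4h and 1228 for Lat2, and these overlapped. Clip2 followed at 433, apart from its neighbours in the order. Baz1b (246), Gtf2i (215) and Rfc2 (193) overlapped in turn, and Limk1 was next at 141. Gtf2ird1 (29.5) and Gtf2ird2 (28.9) overlapped each other, and Stx1a was lowest at 8.42. Ncf1 stood at 2718 in WT and 3560 in gp91phox-/- on the same scale, above each of them, but at 872 in p47phox-/-, below Eif4h (1373) and Lat2 (1360) there.

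Spread within genotypes differed among the 10. The coefficient of variation in WT was 2.65% for Lat2 and 4.60% for Baz1b, but 22.5% for Gtf2ird1 and 66.2% for Stx1a. In p47phox-/- it was higher than in WT for some, at 13.6% for Lat2, 12.3% for Baz1b and 28.2% for Gtf2ird2, and lower for others, at 11.8% beside 17.7% for Clip2, 4.31% beside 6.80% for Eif4h and 10.9% beside 12.6% for Limk1. Gtf2i was most variable in gp91phox-/-, at 27.4%.

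Within 1 Mb of Ncf1 the table listed 41 other genes, of which 25 were tested. In p47phox-/- against WT 1 of the 25 was called, Eln, which was higher. Against gp91phox-/- 2 were called, Baz1b and LOC115490142, both lower, and against both other genotypes these 2 and Eln. The share called was 4.0%, 8.0% and 12.0% in these comparisons, beside 1.12%, 9.93% and 5.28% of all genes. On recovered reads edgeR called 0, 1 and 2 of the 25 in these comparisons, beside 133, 1315 and 696 of the 14404 genes. Of the 25, DESeq2 called 3, 4 and 5, beside 678, 2276 and 1451 of the 14404. In windows of 5 Mb (131 genes tested) the share called in limma was 0.763%, 11.5% and 6.87%. Between gp91phox-/- and WT 0 of the 25 were called within 1 Mb in limma, and 2 reached an unadjusted p under 0.05, beside 21.71% of all genes. There edgeR called 0 and DESeq2 called 1, beside 973 and 1771 of all genes. In the same comparison limma called 5.34% within 5 Mb, beside 7.05% of all genes.

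**Figure D4:**
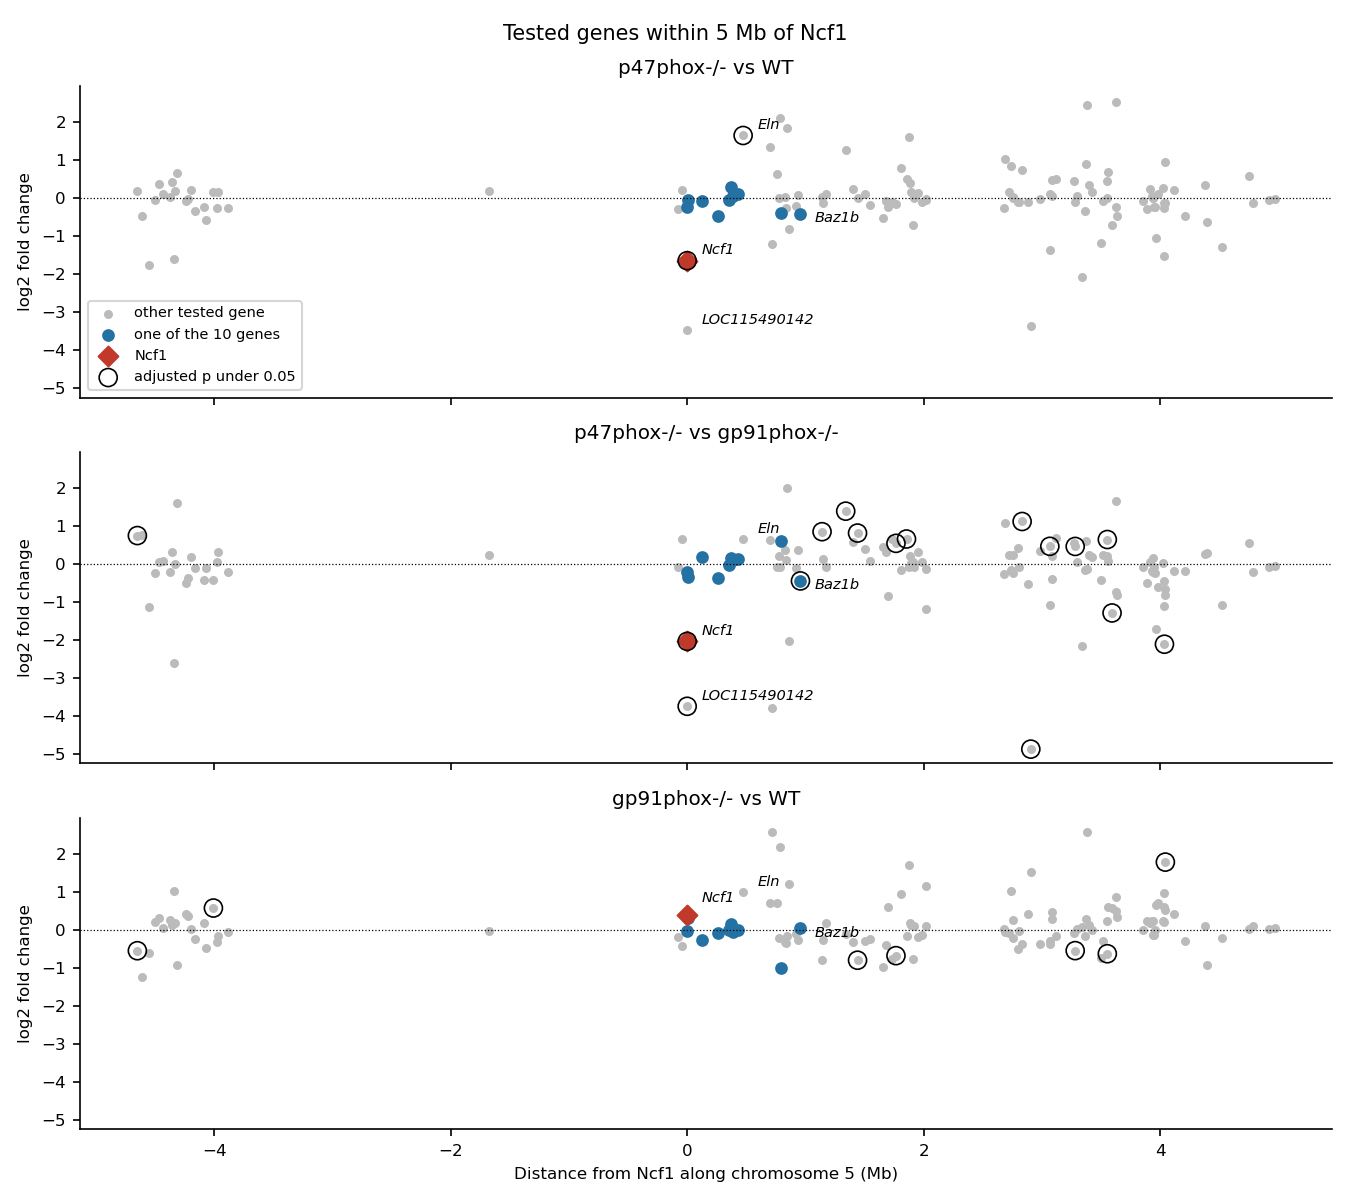
Log2 fold change (vertical axis) of each tested gene by its distance from Ncf1 in Mb (horizontal axis, positive on the distal side), for 3 comparisons. The diamond is Ncf1, blue points are the 10 neighbours and ringed points have an adjusted p under 0.05. Of the 10 neighbours Baz1b alone is ringed, in the middle panel, and ringed genes lie at many distances.

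LOC115490142 is a long noncoding RNA annotated inside Ncf1 on the opposite strand, at chr5:134221831-134224249. Of its 2419 bases, 618 (25.5%) are annotated as Ncf1 exon. Its start is shown, because it lies in Ncf1 coding sequence: chr5:134221821-134221850 on the plus strand, from RefSeq on GRCm38.p6, with the first 20 bases of the RNA in capitals and all 30 bases inside the coding part of an Ncf1 exon.
LOC115490142: gcggaggcacCGCGGGCTGTGGTTTGACGC

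Reads assigned to LOC115490142 were 55, 72 and 75 in WT, 6, 0 and 21 in p47phox-/-, and 88, 74 and 92 in gp91phox-/-. All 3 p47phox-/- libraries lay below the other 6. The log2 fold change was -3.75 against gp91phox-/- (adjusted p = 0.0218) and -3.48 against WT (adjusted p = 0.0916). At counts this low the size is poorly fixed: leaving out 1 library moved it from -4.78 to -2.58 against gp91phox-/- and from -4.51 to -2.31 against WT, and a pseudocount of 5 gave -2.73 and -2.47. The call against gp91phox-/- was lost in 6 of 23 alternatives. These included the fits without any 1 of the gp91phox-/- libraries and edgeR (adjusted p = 0.0610). Per 1000 reads of Ncf1 there were 4.53, 5.88 and 6.34 such reads in WT, 1.85, 0 and 6.39 in p47phox-/-, and 5.88, 3.68 and 6.16 in gp91phox-/-, so on that scale replicate 3 of p47phox-/- was above all the others. Without knowledge of the strand counted, reads of this RNA and of Ncf1 cannot be told apart.

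Eln encodes elastin, the core of elastic fibres in vessel walls, and lies 473.0 kb from Ncf1. It had 416.8, 444.2 and 199.3 normalized counts in WT, 1329, 713.9 and 1208 in p47phox-/-, and 878.0, 690.2 and 481.3 in gp91phox-/-. Every library of either knockout was above every WT library. The gene rose in p47phox-/- against WT by a log2 fold change of 1.65 (adjusted p = 0.0365), a call that was lost without any 1 of the WT libraries, gp91phox-/- replicate 2, or replicate 1 or 3 of p47phox-/-, with an adjusted p of at most 0.138, and in edgeR (0.0543). In gp91phox-/- the log2 fold change was 0.99 (adjusted p = 0.101). The 10 markers of fibroblasts and smooth muscle, none at 0 in a whole group, summed to 6538 to 8671 in WT, 11016 to 17748 in p47phox-/- and 9501 to 11426 in gp91phox-/-. Of these, 3 rose in p47phox-/- against WT in limma, beside 1.12% of all genes called. They were Col3a1, Sparc and Acta2, with log2 fold changes of 1.09, 1.07 and 1.16. An unadjusted p under 0.05 was reached by 8 of the 10, beside 15.02% of all genes. In gp91phox-/- against WT 2 rose, beside 7.05% of all genes called, which were Sparc by 0.69 and Acta2 by 0.80. The part of these markers in the level of Eln was not tested.

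Beyond the 10 neighbours, 23 further genes of the same conserved block had been listed, and 18 were tested. In p47phox-/- against WT 1 rose (Eln) and 0 fell, with a list median of 0.07 beside -0.02 over all genes. Against gp91phox-/- 8 of the 18 reached an unadjusted p under 0.05, beside 25.97% of all genes. The list median was 0.37 there, beside -0.02 over all genes, while in gp91phox-/- against WT it was -0.19, beside 0.01. Of the 18, 3 rose against gp91phox-/-, where 9.93% of all genes were called: Ccl24, an eosinophil chemoattractant, Nsun5, an RNA methyltransferase, and Por, which passes electrons to cytochrome P450 enzymes. Por was at 10318 ± 1168 in WT, 10358 ± 890 in p47phox-/- and 5908 ± 620 in gp91phox-/- (SD, n = 3), so gp91phox-/- was the group that stood apart, and it fell there against WT by 0.80 on the log2 scale (adjusted p = 0.00335). Ccl24 was at 668 ± 183 in p47phox-/- beside 276 ± 80.0 in WT and 252 ± 62.8 in gp91phox-/-, with a log2 fold change of 1.27 against WT (adjusted p = 0.0562) and 1.39 against gp91phox-/- (adjusted p = 0.00968). Nsun5 was at 319 ± 66.9 in p47phox-/-, 306 ± 20.2 in WT and 178 ± 47.7 in gp91phox-/-, and its call (log2 fold change 0.85, adjusted p = 0.0485) held in 2 of the 9 fits that left out 1 library, those without p47phox-/- replicate 1 or gp91phox-/- replicate 1.

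Genes elsewhere in the genome whose proteins work with those of the 10 were read beside them. Of 43 listed, among them the other replication factor C subunits, the eIF4F subunits, cofilin and its kinases, and the kinases and adaptors around Lat2, 41 were tested. In p47phox-/- against WT 0 of the 41 were called in limma, with a median log2 fold change of -0.08 beside -0.02 over all genes. An unadjusted p under 0.05 was reached by 5, beside 15.02% of all genes. On recovered reads edgeR called 0 and DESeq2 called 1, beside 133 and 678 of all genes. Against gp91phox-/- 1 of the 41 was called in limma, beside 9.93% of all genes. An unadjusted p under 0.05 was reached by 7, beside 25.97% of all genes. There edgeR called 1 and DESeq2 called 4, beside 1315 and 2276 of all genes. The 1 called in limma was Pak1, a kinase that activates Limk1, lower by 0.64 on the log2 scale (adjusted p = 0.0105). Its level was 2465 ± 264 in gp91phox-/- beside 1574 ± 107 in p47phox-/- and 1410 ± 148 in WT (SD, n = 3), so again gp91phox-/- stood apart. In gp91phox-/- against WT 1 of the 41 rose and 2 fell, beside 7.05% of all genes called. Pak1 rose, and Grb2 and Syk, a signalling adaptor and the kinase upstream of Lat2, fell by 0.46 and 0.57 on the log2 scale. Grb2 and Syk are named here after their values were seen.

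Beside Rfc2, 12 genes of DNA replication and mitosis were listed, all tested. In p47phox-/- against WT 0 of these were called in limma, edgeR or DESeq2. An unadjusted p under 0.05 was reached by 0, beside 15.02% of all genes. Against gp91phox-/- 1 of the 12 was called in limma, beside 9.93% of all genes. An unadjusted p under 0.05 was reached by 5, beside 25.97% of all genes. On recovered reads edgeR called 1 and DESeq2 called 4, beside 1315 and 2276 of all genes. The 1 called in limma was Mki67, lower by 1.19 on the log2 scale (adjusted p = 0.00885). It had 2250 ± 738 normalized counts in p47phox-/-, 5030 ± 1083 in gp91phox-/- and 1990 ± 420 in WT (SD, n = 3).

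The 18 genes of macrophage identity were counted in every genotype and summed to 1801921 to 2684136 normalized counts per library, with none at 0. Adgre1, which encodes F4/80, ran from 31772 to 51336 in WT and from 34709 to 45863 in p47phox-/-. In p47phox-/- against WT 0 of the 18 were called in limma, and 4 reached an unadjusted p under 0.05, beside 15.02% of all genes. On recovered reads edgeR called 0 and DESeq2 called 1, beside 133 and 678 of all genes. The 7 neutrophil markers summed to 3969 to 6031 over all libraries, with Ngp and Camp at 0 in each. In WT 4 of the 7 were at 0 in every library, in p47phox-/- 6 and in gp91phox-/- 2, and only 1 of the 7 was tested. The sum in p47phox-/- thus came from a single gene and does not show that these markers were present as a set. The 10 mast cell markers summed to 343 to 1036, with Fcer1a at 0 in each but Kit, a growth factor receptor also found on other cells, counted in all (194 to 482). Of these 10, 7 were at 0 in every library of WT, 3 in gp91phox-/- and 1 in p47phox-/-, and only 3 were tested. In p47phox-/- against gp91phox-/- 1 of the 3 was called in limma, beside 9.93% of all genes. This was Hdc, which makes histamine, lower by 1.99 on the log2 scale (adjusted p = 0.0306). The list median there was 0.05, beside -0.02 over all genes, so the fall of Hdc was not shared by the list.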

How the data were processed

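The deposited table held 1 normalized count per gene and library, a signal that the authors made by dividing reads by a size factor. Reads were converted with bcl2fastq 2.19, trimmed with cutadapt, aligned to mm10 with STAR 2.5.2b and counted per gene, per the labels' protocols, and DESeq2 is named in the submitters' processing notes. No label states the strand setting or annotation of the counting. Low values were whole multiples of 1 read, and whole reads were recovered for 100% of values at a tolerance of 0.01.

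Here log2(normalized count + 1) was fitted over all 9 libraries with limma 3.58.1 (R 4.3.3) with a mean-variance trend, keeping a gene when 3 or more libraries reached 10 normalized counts. Benjamini-Hochberg adjustment ran over all 14404 genes, and genes with an adjusted p under 0.05 were called. Fold changes are on that log2 scale, which understates changes of low genes. A likewise fitted contrast set p47phox-/- against the mean of both other genotypes. On the recovered reads, edgeR 4.0.16 (quasi-likelihood) called 133 genes in p47phox-/- against WT, 1315 against gp91phox-/-, 973 in gp91phox-/- against WT and 696 in p47phox-/- against both, and DESeq2 1.42.0 called 678, 2276, 1771 and 1451. The code was tested on simulated data.

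The members and the gene lists were chosen with earlier results of these data known. Genes named are the 10 listed, Ncf1, genes called within 1 Mb, list members called in a comparison with p47phox-/-, and the 3 nearest profiles to Baz1b. Positions came from GENCODE M21 and RefSeq on GRCm38. Alternatives changed the pseudocount, filter, scaling, model and libraries. Promoter windows of Rfc2 and Lat2 were not used here.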

Additional observations from a re-analysis of the deposited data

Results flagged for a closer look

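The effects of the 2 knockouts against WT differed by the test of p47phox-/- against gp91phox-/- for the genes below, most of them named because they were called in a comparison with p47phox-/-, so their being listed here is no further evidence. They have log2 differences (p47phox-/- minus gp91phox-/-) given here without explanation. Ncf1 differed by -2.04 and its nested RNA LOC115490142 by -3.75. Among the 10 neighbours Baz1b differed by -0.45. Elsewhere in the block Ccl24 differed by 1.39, Nsun5 by 0.85 and Por by 0.81. Away from chromosome 5 Pak1 differed by -0.64, and Ptprc by -0.51 and Rmnd5a by -0.51, the last pair chosen for profiles like that of Baz1b. The calls for Baz1b, LOC115490142, Nsun5, Ptprc and Rmnd5a were lost in some of the fits that left out 1 library.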

How the results depend on the processing

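Of 946 fold changes of the 10 genes under the alternatives, 856 kept their direction and side of the threshold, 29 were no longer called, 2 became called and 59 changed sign, none of these called in either fit. Against gp91phox-/- and against both other genotypes the count of neighbours called went from 1 to 0 with no filter, quantile normalization, the replicate block, no mean-variance trend, array weights or without p47phox-/- replicates 2 and 3, and against gp91phox-/- also when only the groups compared were fitted. DESeq2 called 1 against WT and 2 against both, beside 678 and 1451 of all genes. Leaving out 1 library gave 0 to 1 against gp91phox-/- and against both. The cause was not tested.

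Genes called in p47phox-/- against WT, against gp91phox-/-, in gp91phox-/- against WT and in p47phox-/- against both numbered 162, 1430, 1016 and 760 as reported. They were 678, 2276, 1771 and 1451 with DESeq2, 52, 898, 596 and 341 with no trend, and 12, 442, 1530 and 42 without p47phox-/- replicates 2 and 3, where the lone library is assumed to vary like the other groups. No filter gave 501 against both, the groups compared alone 1529 in gp91phox-/- against WT, and array weights 2319 there and 439 against both. Leaving out 1 library gave 48 to 224, 760 to 1655, 515 to 1560 and 246 to 890.

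Sign changes of log2 fold changes that were never called follow. In gp91phox-/- against WT Rfc2 became 0.023 with TMM scaling, 0.0225 with edgeR, 0.015 with DESeq2 and its size factors and 0.012 without immunoglobulin, B and plasma cell genes in the scaling. There Limk1 became 0.015, 0.013, 0.0046, 0.0074 and 0.0045 under the same, and 0.0002 with quantile normalization, which gave 0.050 for Gtf2ird2. Quantile normalization gave 0.0015 for Gtf2i against WT and -0.029 for Gtf2ird1 against both, and array weights gave 0.0031 and 0.046 for Gtf2i and Gtf2ird1 against WT. Stx1a against WT became 0.11 with a pseudocount of 5, 0.38 with quantile normalization and 0.68 with edgeR and DESeq2, and against both -0.16 with a pseudocount of 0.5 and -0.29 with array weights. Without p47phox-/- replicates 2 and 3, Gtf2i (0.093) and Stx1a (1.09) against WT changed sign, as did Limk1 against WT (-0.070), gp91phox-/- (-0.058) and both (-0.064).

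With 1 library left out, fold changes in p47phox-/- against WT ran from -0.11 to 0.065 for Gtf2i, -0.31 to 0.19 for Gtf2ird1, -0.12 to 0.070 for Rfc2 and -1.56 to 1.52 for Stx1a. Against gp91phox-/- they ran from -0.048 to 0.45 for Gtf2ird1, -0.12 to 0.075 for Rfc2 and -0.55 to 2.52 for Stx1a. In gp91phox-/- against WT they ran from -0.11 to 0.0018 for Gtf2ird2, -0.23 to 0.026 for Clip2, -0.082 to 0.037 for Rfc2, -0.096 to 0.085 for Limk1 and -0.0034 to 0.068 for Baz1b. Against both they ran from -0.18 to 0.32 for Gtf2ird1, -0.12 to 0.072 for Rfc2 and -1.06 to 2.02 for Stx1a.

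Same-numbered libraries showed no large shared deviation (9 pairs, correlations from -0.04 to 0.076). These values cannot show whether the libraries were collected or prepared in pairs. With the replicate block 127, 1238, 877 and 581 genes and 0, 0, 0 and 0 neighbours were called. With 3 libraries a genotype, small changes of low genes such as Stx1a were not detectable.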
